A study of Mus musculus with 18 samples.

Results

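INSERT-seq measures how a short DNA sequence placed in a transcribed region affects the RNA made across it. A pool of inserts is integrated at one locus, and the RNA reads of each insert are set against its reads from genomic DNA (gDNA). The gDNA reads are a relative measure, made by PCR, of how common an insert is among the cells. Some inserts were read in the RNA both with all of their sequence (the unspliced form) and without an internal stretch (a spliced form). The inserts described here have exactly 1 spliced form listed, and in control cells both forms made up a sizeable share of the RNA. Beyond the single form they had to have a number outside the range 12001 to 12500, a mean of at least 20 gDNA reads over the 9 gDNA libraries, at least 60 RNA reads over the 3 siNT cultures, and a spliced share of 20% or more and under 80% in the pooled siNT reads. Of 16461 inserts, 384 met these conditions.

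The cells were mouse embryonic stem cells, female and of the CAST/129 hybrid strain, and all groups carried the same 3 alleles: Oct4C::TagBFP2(129), then Oct4ua157::INSERT-seqlibrary(129), then Oct4ua172::mKate2(129). The library therefore lay on the 129 allele in the upstream antisense region of Oct4, with mKate2 behind it. Cultures received siNT, the non-targeting control, siWDR82 or siZC3H4, with 3 cultures each. Every culture gave an RNA and a gDNA library, which makes 18 libraries. The dose was 30 nM, except that the labels give 31 and 32 nM for siWDR82 cultures 2 and 3. Inserts share 1 locus and 1 pool of cells, so they are not replicates of a condition, and tests between siRNAs were made over cultures.

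Antisense transcription upstream of promoters gives short, unstable RNA because RNA polymerase II is usually stopped early there. WDR82 and ZC3H4 form the Restrictor complex, which limits such early noncoding transcription. Splicing needs a 5′ splice site, a branch point and a 3′ splice site, and recognition of a 5′ splice site by U1 snRNP is known to protect a transcript from early termination. An insert that is spliced in only part of its RNA gives a view of both products from one template.

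Insert RNA reads numbered from 32173068 to 52840375 per library and insert gDNA reads from 4584881 to 11510602. The median partly spliced insert had from 718.5 to 1306 RNA reads and from 142 to 423 gDNA reads in a library. PCR duplicates are included, since no molecular identifiers are mentioned, so error estimates rest on the spread between cultures and not on read numbers. Insert sequences and the genes they came from were not analysed here, and inserts are named by their number.

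Of 2404 inserts with any spliced form, 2259 had exactly 1. Removing the excluded number range left 1880, the gDNA minimum left 1744 and the RNA minimum left 1703. These 1703 divided by their siNT spliced share into 957 under 20%, the 384 in the window and 362 at 80% or more. At the lower edge, sequence_12874 lay just inside with a share of 20.05% (511 spliced and 2038 unspliced reads) and sequence_13545 just outside with 19.8%. At the upper edge, sequence_12857 lay just inside with 79.8% and sequence_13748 just outside with 80.0143%. The read minimum came near no insert: the lowest inside, sequence_12901, had 108 siNT RNA reads, and the highest outside with a share in the window, sequence_05513, had 37. The siNT values below chose the inserts and are descriptions.

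Partly spliced inserts were unevenly placed in the numbering. Numbers 12501 to 14000 held 209 of the 384, which was 13.9% of the 1500 inserts there. Numbers 1 to 12000 held 157, or 1.31% of 12000, and numbers 14001 to 16461 held 18, or 0.731% of 2461. Inserts with 1 spliced form were also more frequent in 12501 to 14000, with 763 of 1500 against 958 of 12000. Among inserts with 1 form that passed the read minimums, the partly spliced made up 30.6% of 682 in 12501 to 14000 and 17.9% of 877 in 1 to 12000. What the number ranges stand for was not among the sources used here.

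In siNT the 2 forms had about equal numbers of reads over all 384 inserts. The same siNT reads had chosen the inserts, by a window lying evenly around equal shares. This balance therefore follows largely from the choice and is a description. The spliced share of their pooled reads was 55.0%, 48.7% and 51.9% in siNT cultures 1 to 3. With siWDR82 it was 41.2%, 43.1% and 44.6%, and with siZC3H4 it was 45.6%, 49.3% and 50.4%. The siWDR82 cultures lay below every siNT culture, while the siZC3H4 and siNT cultures overlapped.

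The median insert behaved likewise. Its spliced share was 49.9% ± 2.26 (SD, n = 3) in siNT, 43.4% ± 0.648 in siWDR82 and 48.4% ± 0.738 in siZC3H4. On a log2 scale, the ratio of spliced to unspliced reads, with 0.5 added to each, had medians of 0.04, -0.00 and -0.09 in the siNT cultures. The siWDR82 cultures had -0.41, -0.36 and -0.33, and the siZC3H4 cultures -0.13, -0.05 and -0.01. The median ratio was thus lower by 0.36 with siWDR82, several times the SD of 0.066 in siNT and 0.039 in siWDR82, and differed by -0.05 with siZC3H4, within the SDs of 0.066 and 0.063. Both forms were counted in one library, so this ratio does not depend on how libraries were scaled.

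Each form was then set against gDNA as log2(CPM + 0.5) in RNA minus log2(CPM + 0.5) in gDNA, where CPM scales the reads of an insert to the insert total of its library. The level of the spliced form was -1.55 ± 0.25 (SD, n = 3) for the median insert in siNT, -1.97 ± 0.24 in siWDR82 and -1.76 ± 0.14 in siZC3H4. The level of the unspliced form was -1.41 ± 0.36, -1.46 ± 0.05 and -1.46 ± 0.03. On this scale, the spliced form was lower by 0.42 with siWDR82, above the SDs, and the unspliced form differed by -0.05 under either siRNA, well within them. The spliced form still overlapped, with -1.69 in siWDR82 culture 3 and -1.75 in siNT culture 2. In the edgeR fits described below, which use TMM scaling, the median change of the unspliced form was -0.44 with either siRNA. An unchanged unspliced form is therefore not established. Total RNA, both forms together, was -0.42 ± 0.24 in siNT, -0.56 ± 0.14 in siWDR82 and -0.49 ± 0.08 in siZC3H4, which overlap.

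These levels compare an insert with the rest of the pool, and the median of the pool also differed from siNT. The median of all 15364 tested inserts was higher by 0.38 with siWDR82 and 0.36 with siZC3H4 when scaled to insert totals. Scaled to the spike-in RNA it was higher by 1.29 and 0.88. The median of the partly spliced inserts then differed from siNT by 0.77 ± 0.58 (SD over siWDR82 cultures) and 0.44 ± 0.90 (SD over siZC3H4 cultures). The SD over siNT cultures was 0.53 on this scale, so the difference with siZC3H4 lay within the spread. That with siWDR82 was little larger than the SDs. In insert reads per spike-in read, the lowest siZC3H4 culture lay below every siNT culture. The other siZC3H4 cultures and all siWDR82 cultures lay above siNT. Rescaling a library shifts all of its inserts nearly alike, so a difference between the partly spliced inserts and all inserts could hardly change with it. That difference was -0.53 on totals and -0.52 on spike-ins with siWDR82, and -0.43 on both scales with siZC3H4. The combined share of the partly spliced inserts in insert RNA reads went from 1.92% ± 0.103 (SD, n = 3) in siNT to 1.37% ± 0.0643 in siWDR82 and 1.68% ± 0.0833 in siZC3H4. Their share of gDNA reads was 1.73% ± 0.199, 1.72% ± 0.0435 and 1.90% ± 0.0917.

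Set beside the other inserts with 1 form, the partly spliced lay near the rarely spliced in total RNA and far below the efficiently spliced. Total RNA of the median insert in siNT was -0.50 for the 957 rarely spliced, -0.42 for the partly spliced and 1.59 for the 362 efficiently spliced, against -0.89 for 12470 inserts with no spliced form listed. The unspliced form alone was -0.54, -1.41 and -2.52 for the rarely, partly and efficiently spliced, and the spliced form was -5.89, -1.55 and 1.50. With siWDR82 total RNA was -0.41, -0.56 and 0.78 for the rarely, partly and efficiently spliced, and -0.45 for those with no form listed. With siZC3H4 the values were -0.31, -0.49, 0.56 and -0.47. The median log2 ratio differed from siNT by 0.81, -0.36 and -0.61 with siWDR82 for the rarely, partly and efficiently spliced. With siZC3H4 these differences were 0.91, -0.05 and -0.64. A lower ratio with siWDR82 was thus not particular to the partly spliced. The SDs of the siNT ratio were 0.26, 0.07 and 0.54, and the rarely spliced lay at -9.43 in siNT, where spliced reads were few. These classes were cut on siNT reads, so the distances are descriptions and were not tested.

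Within the window, a higher spliced share did not go with a steady rise in total RNA. The 136 inserts with a siNT share of 20 to 40% had a median total RNA of -0.79 ± 0.23 (SD, n = 3) in siNT. It was -0.11 ± 0.24 for the 117 inserts at 40 to 60% and -0.20 ± 0.41 for the 131 at 60 to 80%. In each siNT culture the lowest bin lay below the others, and the upper bins overlapped.

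All 3 bins had a lower spliced share with siWDR82. The median share went from 27.6% ± 1.49 (SD, n = 3) in siNT to 21.7% ± 1.44 in the lowest bin, from 49.1% ± 3.00 to 43.7% ± 1.39 in the middle bin and from 70.02% ± 3.30 to 63.5% ± 0.0974 in the highest. With siZC3H4 the shares were 26.2% ± 1.17, 48.8% ± 1.59 and 68.3% ± 4.38, each within the spread of siNT. Total RNA with siWDR82 was -0.76, -0.42 and -0.44 from the lowest to the highest bin, and the lowest bin again lay lowest. The bins were cut on siNT reads, so these differences are descriptions.

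To compare siRNAs with reads that had not chosen the inserts, the same window was applied to other libraries. With inserts chosen in 1 siNT culture and values taken from the other 2, the median ratio differed with siWDR82 by -0.25, -0.27 and -0.36 (307, 319 and 342 inserts). For siZC3H4 the same choices gave -0.08, -0.03 and -0.10. Chosen by the same window in the pooled siZC3H4 cultures (384 inserts, 293 of them shared), the ratio was 0.02 ± 0.04 (SD, n = 3) in siNT and -0.28 ± 0.01 in siWDR82. Chosen in the pooled siWDR82 cultures (393 inserts), it was 0.16 ± 0.09 in siNT and 0.16 ± 0.03 in siZC3H4. The ratio with siWDR82 was thus also lower in inserts that neither side of the comparison had chosen.

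The same independent choice gave the 2 forms separately. Among inserts chosen in siZC3H4, the spliced form was lower by 0.40 with siWDR82, from -1.47 ± 0.20 (SD, n = 3) to -1.87 ± 0.20, and the unspliced form was -1.44 ± 0.30 and -1.44 ± 0.09. Among inserts chosen in siWDR82, the spliced form was -1.31 ± 0.23 in siNT and -1.53 ± 0.13 in siZC3H4, a difference within the spread of the siNT cultures. The unspliced form was -1.50 ± 0.32 and -1.55 ± 0.05.

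Single inserts differed in both directions around these medians. Reads are pooled over the 3 cultures here, so these counts carry no spread between cultures. In the pooled siWDR82 reads, 266 inserts had a lower spliced share than in pooled siNT and 118 a higher one. Of the 384, 293 stayed in the window, 67 lay under 20% and 24 at 80% or more. With siZC3H4, 224 were lower and 160 higher, 293 stayed in the window, 55 lay under 20% and 36 at 80% or more. Both pooled knockdowns kept 253 inserts in the window.

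The ratio was tested for each insert with edgeR's quasi-likelihood test on spliced and unspliced counts, with a term for each culture. Benjamini-Hochberg adjustment ran over all 1527 inserts with a spliced form and a mean of at least 20 reads of spliced and of unspliced RNA. The partly, rarely and efficiently spliced inserts with 1 form made up 374, 401 and 291 of these, so other inserts were included. Of the 384, 374 were tested. With siWDR82 the fitted change was below 0 for 257 of 374, with a median of -0.52, against a median of -0.36 and 60.6% below 0 over all 1527. None of the 374 passed an adjusted p of 0.05, where the background was 0.131% of all inserts called. At an unadjusted p under 0.05 there were 20 (5.35%, against 7.40% of all 1527), 18 of them lower and 2 higher. DESeq2 called 22, 16 lower and 6 higher, against backgrounds of 4.06% lower and 2.42% higher, and limma called 0. The median standard error of an insert's change was 1.16, larger than the median change.

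With siZC3H4 the fitted change in ratio was below 0 for 211 of 374, with a median of -0.13 against -0.07 over all. Again edgeR called none, with a background of 0.196%, and 7 had an unadjusted p under 0.05 (1.87%, against 4.58% of all). DESeq2 called 10, 5 in each direction, against 2.1% of all inserts lower and 2.03% higher, and limma called 0.

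The fitted difference of siZC3H4 from siWDR82 sets only the reads of these cultures against each other, and none of these reads chose the inserts. The fit and its read minimum ran over all cultures, siNT included. The SEs, p-values and calls are therefore not independent of the choice. The ratio was higher with siZC3H4 than with siWDR82 for 244 of 374 inserts and lower for 130, with a median fitted difference of 0.33. Over all 1527 inserts the median was 0.25, with 39.7% below 0. By median over the 384 inserts, all 3 siZC3H4 cultures (-0.13 to -0.01) lay above all 3 siWDR82 cultures (-0.41 to -0.33). The cultures of the 2 siRNAs did not overlap for 41 inserts with the higher ratio in siZC3H4, 11.0% against a background of 10.3%, and for 14 with the lower, 3.74% against 3.8%. The first share lay slightly above its background and the second slightly below, so nothing is read from either. No single insert was called by edgeR (background 0%), 5 had an unadjusted p under 0.05 (1.34%, against 3.14% of all), DESeq2 called 4 (3 higher, 1 lower; backgrounds 0.917% and 0.458%) and limma called 0.

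Against siNT, the cultures did not overlap for 49 of 374 inserts with a lower ratio in siWDR82 (13.1%, background 10.7%) and for 13 with a higher one (3.48%, background 4.98%). With siZC3H4 there were 25 lower (6.68%, background 7.2%) and 15 higher (4.01%, background 5.57%). These contrasts include the siNT reads that chose the inserts, and nothing is read from the counts.

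Inserts named below for a change in ratio against siNT were taken from those whose cultures with that siRNA did not overlap siNT. That lack of overlap therefore came from the choice. Among inserts with the lowest p for a lower ratio in siWDR82 was sequence_12639. Its spliced share was 57.6%, 32.4% and 33.2% in siNT, 12.7%, 13.6% and 16.2% in siWDR82 and 20.4%, 23.2% and 26.2% in siZC3H4. All siNT cultures were above all knockdown cultures. Its spliced reads in siNT were 1398, 1124 and 1238 and its unspliced reads 1031, 2343 and 2493. The edgeR log2 change with siWDR82 was -2.05 (SE 0.53, adjusted p = 0.594), and that in total RNA over gDNA was 0.14 (SE 0.58, edgeR adjusted p = 0.968).

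The other insert of this kind, sequence_14214, had shares of 29.5%, 21.4% and 28.2% in siNT, 9.39%, 16.9% and 8.00% in siWDR82 and 17.8%, 13.2% and 14.0% in siZC3H4. Here also both knockdowns lay below siNT. The log2 change in ratio with siWDR82 was -1.54 (SE 0.44, edgeR adjusted p = 0.594). The log2 change in total RNA over gDNA was -0.10 (SE 0.31, edgeR adjusted p = 0.957).

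In the opposite direction, sequence_09185 had spliced shares of 80%, 63.3% and 66.7% in siNT, 84.2%, 84.0% and 85.3% in siWDR82 and 83.9%, 86.8% and 85.2% in siZC3H4. The 6 knockdown cultures lay close together and above siNT. The log2 change in ratio was 1.18 (SE 0.45, edgeR adjusted p = 0.595) with siWDR82 and 1.28 (SE 0.45, edgeR adjusted p = 0.865) with siZC3H4. For sequence_13860 the unspliced reads were 615, 301 and 259 in siNT, 49, 25 and 0 in siWDR82 and 168, 95 and 117 in siZC3H4, while the spliced reads were 926, 1629 and 1628 in siNT and 1136, 752 and 520 in siWDR82. Its fitted change with siWDR82, 4.01 (SE 1.63, edgeR adjusted p = 0.635), rests on those few unspliced reads.

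With siZC3H4, sequence_12611 had the lowest p for a lower ratio. Its shares were 78.2%, 73.7% and 76.2% in siNT, 54.3%, 59.2% and 60.03% in siWDR82 and 52.5%, 68.4% and 59.4% in siZC3H4, with no overlap between siNT and either knockdown. The log2 change with siZC3H4 was -1.07 (SE 0.42, edgeR adjusted p = 0.969). For sequence_13740 the shares were 44.2%, 31.8% and 49.97% in siNT, 32.2%, 33.9% and 32.6% in siWDR82 and 24.5%, 19.3% and 23.9% in siZC3H4. Its siZC3H4 cultures were below all others, with a log2 change against siNT of -1.31 (SE 0.54, edgeR adjusted p = 0.969).

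Besides sequence_09185, the higher ratio with siZC3H4 was led by sequence_01398. Its shares were 49.6%, 42.9% and 45.9% in siNT, 67.6%, 77.3% and 85.0% in siZC3H4, and 38.1%, 85.2% and 70.8% in siWDR82, where the cultures fell on both sides of siNT. The log2 change with siZC3H4 was 2.00 (SE 0.79, edgeR adjusted p = 0.969). Its gDNA reads numbered from 62 to 284, fewer than most inserts named here.

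In the direct comparison of the knockdowns, sequence_04423 had shares of 50.02%, 53.3% and 52.3% in siWDR82 and 64.5%, 73.8% and 74.1% in siZC3H4, with 70.1%, 61.0% and 65.7% in siNT. The siZC3H4 cultures overlapped siNT, and the siWDR82 cultures lay below both. The log2 difference of siZC3H4 from siWDR82 was 1.18 (SE 0.44, edgeR adjusted p = 1).

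The reverse was seen for sequence_07740. Its shares were 75.3%, 49.3% and 68.1% in siWDR82, 17.8%, 18.0% and 25.1% in siZC3H4 and 41.4%, 29.5% and 48.6% in siNT, so the siRNAs fell on opposite sides of the control. The log2 difference of siZC3H4 from siWDR82 was -2.88 (SE 0.90, edgeR adjusted p = 1).

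Total RNA over gDNA was tested with edgeR on the RNA and gDNA counts of all 15364 inserts. With siWDR82 the fitted change was below 0 for 262 of 384 inserts, with a median of -0.57 against 0.06 over all inserts. One insert was called lower and none higher, against backgrounds of 0.111% and 0.586%. With siZC3H4 it was below 0 for 248, with a median of -0.44 against 0.06, and 1 was called lower and none higher against 0.026% and 0.325%. At an unadjusted p under 0.05 there were 49 lower and 1 higher with siWDR82, together 13.0% against 12.8% of all inserts. With siZC3H4 there were 29 lower and 2 higher, together 8.07% against 9.39%. The cultures did not overlap for 58 lower (15.1%, background 6.87%) and 27 higher (7.03%, background 20.1%) with siWDR82, and for 50 lower (13.0%, background 5.18%) and 28 higher (7.29%, background 18.1%) with siZC3H4. As for the ratio, the contrasts with siNT include the reads that chose the inserts, and nothing is read from the counts.

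Between the knockdowns, total RNA over gDNA was higher with siZC3H4 than with siWDR82 for 211 of 384 inserts, with a median fitted difference of 0.10 against 0.01 over all inserts. The edgeR test called none (background 0%), with 6 at an unadjusted p under 0.05 (1.56%, against 1.90% of all), and DESeq2 called 0. The cultures did not overlap for 41 inserts higher in siZC3H4 (10.7%, background 7.04%) and 23 lower (5.99%, background 7.5%).

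RNA and gDNA of one culture deviated together, and with the culture as a block the count of lower calls for total RNA with siWDR82 was 16 of 384 (4.17%), against a background of 1.68% of all inserts, with none higher. Their fitted changes ran from -2.71 to -0.97. DESeq2 without the block called 12 lower (background 1.44%) and none higher, and 9 inserts were called both ways. With siZC3H4 the block gave 1 lower call (background 0.0716%) and DESeq2 gave 2 (background 0.488%). Per form, the block called 13 spliced (3.39%) and 3 unspliced forms (0.781%) lower with siWDR82 and 1 of each (0.260%) with siZC3H4. The fit without the block called none. The backgrounds, 1.33% with siWDR82 and 0.035% with siZC3H4, cover all 17125 features of both forms, most of them unspliced. They are therefore no measure for spliced forms alone. All of these contrasts include the siNT reads that chose the inserts, so nothing is read from the counts.

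For the forms without the block, 0 of 384 were called by edgeR under either siRNA (backgrounds over both forms 0.642% with siWDR82 and 0.345% with siZC3H4, either direction). With siWDR82, 302 spliced forms (78.6%) had a change below 0, with a median of -0.93, close to the 75.1% and -0.89 of all 1795 spliced forms tested. With siZC3H4 they were 280 (72.9%) with a median of -0.65, against 69.1% and -0.63 of all. For the unspliced form, 246 (64.1%) had a change below 0 with siWDR82, with a median of -0.44, against 46.8% and 0.08 of all 15330 tested. With siZC3H4 they were 244 (63.5%) with a median of -0.44, against 46.7% and 0.07. At an unadjusted p under 0.05 with siWDR82 there were 66 spliced forms (17.2%, against 21.7% of all) and 29 unspliced (7.55% against 12.2%). With siZC3H4 there were 35 (9.11% against 17.9%) and 33 (8.59% against 9.02%), so none of these shares stood above that of all features tested. DESeq2 called 15 spliced and 6 unspliced forms lower with siWDR82 (background over both forms 1.47%) and 3 and 6 lower with siZC3H4 (background over both forms 0.654%). Nothing is read from these counts either, since the siNT reads chose the inserts.

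The called insert with siWDR82 was sequence_02857. Its total RNA over gDNA was 1.88, 1.78 and 1.55 in siNT, 0.34, 0.52 and 0.22 in siWDR82 and 1.41, 0.85 and 1.06 in siZC3H4, in log2 units. The 3 groups did not overlap. The edgeR log2 change with siWDR82 was -1.67 (SE 0.36, adjusted p = 0.0334, and 0.000558 to 0.626 over its alternatives). Its spliced share was 44.6%, 42.5% and 33.7% in siNT and 51.3%, 40.1% and 36.2% in siWDR82, with a log2 change in ratio of 0.13 (SE 0.36, edgeR adjusted p = 0.958). The shares overlapped between these groups while the levels did not. Without siNT culture 1, siWDR82 culture 1, 2 or 3, or siZC3H4 culture 1 or 3, the adjusted p of edgeR was 0.0586, 0.0890, 0.109, 0.186, 0.0575 and 0.0592, so the call was lost with each. On spike-in scaling the change was -0.43 (edgeR adjusted p = 0.626).

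The called insert with siZC3H4, sequence_04051, held its spliced share within a few points in all cultures. It was 40.5%, 39.9% and 39.6% in siNT, 40.003%, 39.1% and 37.3% in siWDR82 and 37.7%, 37.2% and 38.6% in siZC3H4. Its total RNA over gDNA was 2.22, 2.69 and 2.60 in siNT, 0.85, 1.62 and 1.45 in siWDR82 and 0.90, 0.88 and 1.24 in siZC3H4. Every knockdown culture was below every siNT culture in total RNA.

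The edgeR log2 change in total RNA of sequence_04051 was -1.74 (SE 0.37, adjusted p = 0.0459, and 0.000607 to 0.552 over its alternatives) with siZC3H4 and -1.42 (SE 0.37, adjusted p = 0.0882) with siWDR82. With the culture as a block the adjusted p was 0.0244 and 0.0199. The change in ratio was -0.13 (SE 0.25, edgeR adjusted p = 0.998) and -0.07 (SE 0.25, edgeR adjusted p = 0.965). The call without the block was lost when any culture but siNT culture 1 was left out, with adjusted p from 0.0639 to 0.239. On spike-in scaling the change with siZC3H4 was -0.70 (edgeR adjusted p = 0.552).

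The 4 inserts with the most siNT RNA reads give the most deeply read examples, and all had a higher total RNA over gDNA than the median insert. They were picked for their siNT RNA reads, which favours a high siNT level and a fall from it. Their changes and p-values against siNT are therefore descriptions. For sequence_02952 the spliced share was 72.8%, 60.6% and 54.2% in siNT, 49.6%, 54.2% and 50.8% in siWDR82 and 54.3%, 61.4% and 49.9% in siZC3H4. Its total RNA over gDNA was 2.70, 2.88 and 2.31 in siNT, 2.05, 1.74 and 2.03 in siWDR82 and 2.37, 2.57 and 2.38 in siZC3H4. Only the siWDR82 level lay outside the siNT range, with a log2 change of -1.04 (SE 0.41, edgeR adjusted p = 0.280) and an adjusted p of 0.0428 with the culture as a block in edgeR.

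For sequence_00951 the shares were 61.1%, 50.1% and 61.8% in siNT, 38.3%, 42.5% and 48.4% in siWDR82 and 45.1%, 50.9% and 51.1% in siZC3H4. The siWDR82 cultures were below siNT, with a log2 change in ratio of -0.86 (SE 0.31, edgeR adjusted p = 0.594). Total RNA over gDNA was 2.52, 2.14 and 1.99 in siNT, 0.56, 1.21 and 1.48 in siWDR82 and 1.62, 0.59 and 1.40 in siZC3H4. Both knockdowns were below siNT, with log2 changes of -1.58 (SE 0.47, edgeR adjusted p = 0.133, 0.0391 with the block) and -1.31 (SE 0.47, edgeR adjusted p = 0.348).

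For sequence_03316 the shares overlapped in all groups, at 74.0%, 64.9% and 72.7% in siNT, 70.6%, 57.3% and 67.6% in siWDR82 and 69.5%, 73.4% and 64.4% in siZC3H4. Total RNA over gDNA was 1.85, 1.01 and 1.29 in siNT, 0.14, -0.19 and 0.13 in siWDR82 and 0.83, 1.26 and 0.96 in siZC3H4. It was lower in all siWDR82 cultures, with a log2 change of -1.73 (SE 0.44, edgeR adjusted p = 0.0801, 0.0130 with the block).

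The fourth, sequence_03732, had shares of 62.6%, 59.5% and 68.7% in siNT, 43.5%, 55.0% and 58.7% in siWDR82 and 52.3%, 59.1% and 62.7% in siZC3H4. Its total RNA over gDNA was 1.62, 1.21 and 2.18 in siNT, 0.92, 0.68 and 1.24 in siWDR82 and 1.45, 1.67 and 1.71 in siZC3H4. The siWDR82 and siNT cultures overlapped slightly in level, and the log2 change was -0.97 (SE 0.31, edgeR adjusted p = 0.159, 0.0733 with the block).

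How steady the share was from culture to culture differed widely. Of the 384, 151 were in the window in each of the 3 siNT cultures, 126 in only 2, 87 in 1 and 20 in none, although the pooled share lay inside by rule. With siWDR82 177 inserts and with siZC3H4 182 inserts were in the window in each culture. In all 9 cultures 94 inserts lay in the window, 106 in 7 or 8, 181 in 1 to 6 and 3 in none.

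The median SD of an insert's share was 17.0 percentage points over the siNT cultures, 9.67 in siWDR82 and 9.58 in siZC3H4. If every read were a separate molecule, counting error alone at the mean siNT depth would give a median of 1.43 points. PCR duplicates are included, so the true counting error is larger and not known, and its part in the SDs was not tested. The rule used the pooled siNT reads, so the siNT value is a description. Chosen in siZC3H4, the inserts had a median SD of 13.5 points in siNT and 11.4 in siWDR82, and chosen in siWDR82, 13.4 in siNT and 9.79 in siZC3H4. In 95 inserts, at least 1 culture had 0 reads of one form and 100 or more of the other, with from 12 to 26 such inserts per culture.

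The inserts with all siNT cultures in the window were the better read ones. These 151 had a median of 457 gDNA reads and 6636 siNT RNA reads, against 237 and 1476 for the other 233. In the 6 knockdown cultures, which the rule did not use, 94 of the 151 (62.3%) were always in the window, against 37 of the 233 (15.9%). Depth moved with steadiness, and its part in it was not tested.

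The 94 inserts in the window in every culture had smaller SDs of the siNT levels than all 384. The SD of the siNT ratio was not smaller, at 0.08 against 0.07. This subset was cut on all libraries for a steady share, so its values and SDs are a description. These inserts were also better read, with a median of 8234.5 siNT RNA reads against 3080 for all 384. Their median share was 52.7%, 50.7% and 53.5% in siNT, 45.4%, 45.3% and 47.3% in siWDR82 and 52.3%, 50.5% and 52.4% in siZC3H4. Their spliced form was -0.63 ± 0.08 (SD, n = 3) in siNT, -1.32 ± 0.16 in siWDR82 and -1.002 ± 0.10 in siZC3H4. Their unspliced form was -0.77 ± 0.09, -1.22 ± 0.08 and -1.04 ± 0.11. In these inserts both forms were lower with either siRNA on this scale, and the ratio was lower with siWDR82 only, at -0.23 ± 0.06 against 0.13 ± 0.08 in siNT and 0.10 ± 0.06 in siZC3H4.

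The order of inserts by ratio carried over between siRNAs. Over the 384 inserts, the mean log2 ratio in siWDR82 and in siZC3H4 correlated with a Pearson r of 0.74 (Spearman rho 0.80), and siNT correlated with siWDR82 at 0.55 (0.62) and with siZC3H4 at 0.61 (0.64). Inserts share their cell pool across cultures, and the points are inserts, not replicates. Single cultures correlated at 0.48 to 0.58 within siWDR82, 0.51 to 0.56 within siZC3H4 and 0.47 to 0.56 between them. Within siNT the range was 0.02 to 0.08, where the rule had fixed the pooled share of the same cultures.

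Total RNA over gDNA ranged widely among the inserts, 37.2-fold between the 5th and 95th percentiles in siNT, from -2.95 to 2.26. The level followed the number of the insert. In siNT the median was 0.73 ± 0.19 (SD, n = 3) for 54 inserts numbered 1 to 4000 and 0.75 ± 0.21 for 25 numbered 4001 to 5500. It was -0.80 ± 0.24 for 43 numbered 5501 to 9000, -1.13 ± 0.42 for 35 numbered 9001 to 12000 and -0.54 ± 0.27 for the 209 numbered 12501 to 14000.

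The siNT RNA reads chose the inserts, so differences from siNT are descriptions. With siWDR82 the medians of these ranges lay closer together. The median total RNA was 0.03 ± 0.27 (SD, n = 3) and 0.04 ± 0.20 in the first pair of ranges, lower than in siNT by more than the SDs. It was -0.54 ± 0.16 for 5501 to 9000, above siNT by little more than its SD, and -0.94 ± 0.06 for 9001 to 12000 and -0.73 ± 0.15 for 12501 to 14000, the latter 2 within the spread of siNT. Inside the last range, the 74 inserts numbered 13501 to 14000 went from -0.32 ± 0.41 in siNT to -0.91 ± 0.07. With siZC3H4 the median total RNA was 0.49, 0.20, -0.47, -1.29 and -0.71 in the same order of ranges. The median log2 ratio was lower with siWDR82 in each of these ranges, with differences of -0.30, -0.52, -0.38, -0.82 and -0.36 in the same order, and differed by -0.01 in the 18 inserts numbered 14001 to 16461. With siZC3H4 the differences were -0.05, -0.36, -0.23, -0.57 and -0.06 in the same order, and 0.39 in 14001 to 16461. The ranges with 18 to 54 inserts had siNT SDs in the ratio from 0.11 to 0.72, so the differences between ranges were not resolved, and they were not tested.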

How the data were processed

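The deposited tables, 1 for RNA and 1 for gDNA, hold raw counts of reads for each insert, spliced form and spike-in, which the authors left without normalization. The tools named in the submitters' processing notes are STAR, SAMtools, Bowtie2 2.3.4.3 and cutadapt 1.14, beside the mouse build mm10, with the tool behind each table not given in the sources used here. Per the labels' protocols, the locus was amplified from gDNA by nested PCR, and RNA received spike-in RNA and DNase before reverse transcription from mKate2 and PCR. The cultures are labelled as replicates.

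The inserts and the rules for naming them were chosen with earlier results of these data known. Named were the 4 inserts with the most siNT reads, the 2 highest and 2 lowest changes in ratio per siRNA by lowest p among inserts whose cultures did not overlap, called inserts for total RNA (up to 2 per direction), the insert with the lowest p in each direction between knockdowns, and those at each threshold.

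Counts were analysed in R 4.3.3 with edgeR 4.0.16 quasi-likelihood fits, with TMM within RNA and within gDNA and contrasts of RNA over gDNA from 6 group means. Inserts needed a mean of 20 gDNA and 5 RNA reads. The ratio fit had a term per culture, size factors of 1 and a minimum mean of 20 reads of each form. Benjamini-Hochberg adjustment ran over all features tested, at 0.05. DESeq2 1.42.0, limma 3.58.1, other scalings, filters and choices of inserts and leaving out each culture were alternatives. The scripts were tested on simulated data. RNA and gDNA of one culture deviated together (r from 0.29 to 0.47 in 9 of 9 cultures), so the culture block, which pairs libraries by their labelled culture, is given where it changes a count. Replicate numbers did not pair cultures across siRNAs (r of the log2 ratio from -0.04 to 0.07).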

Additional observations from a re-analysis of the deposited data

Results flagged for a closer look

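The ratio of spliced to unspliced reads of sequence_07740 moved in opposite directions under the 2 siRNAs: all 3 siWDR82 cultures lay above the siNT mean and all 3 siZC3H4 cultures below it. The mean log2 ratio differed by -2.87 between siZC3H4 and siWDR82. In edgeR the fitted difference was -2.88 (SE 0.90, adjusted p = 1, and 0.000965 to 1 over its alternatives, 1 of 15 of which, DESeq2, called it). Its gDNA reads were 51, 860 and 342 in siNT, 380, 81 and 77 in siWDR82 and 142, 114 and 87 in siZC3H4, so the culture with the most had many times that with the fewest. No group here has 4 or more cultures, so single cultures were not tested as outliers.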

How the results depend on the processing

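Of the medians over the 384 inserts, the lower ratio with siWDR82 (-0.36) kept its direction in all alternatives: it was -0.29 for inserts chosen in 1 siNT culture, -0.29 for a window of 30 to 70%, -0.52 for pooled reads, -0.25 for inserts in the window in each siNT culture (added after seeing the data) and -0.39 to -0.33 leaving out 1 culture. The ratio with siZC3H4 was -0.20 for pooled reads, -0.24 outside numbers 12501 to 14000 (added after seeing the data) and -0.08 to -0.01 leaving out 1 culture.

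Levels over gDNA depended on scaling. Total RNA on spike-ins had SDs over cultures of 0.53 in siNT, 0.58 in siWDR82 and 0.90 in siZC3H4. On spike-ins the medians were above 0 instead of below it: those with siWDR82 and siZC3H4 were 0.77 and 0.44 for total RNA, 0.81 and 0.43 for the unspliced form and 0.43 and 0.28 for the spliced form. With pooled reads they were -0.48 and -0.33 for total RNA and -0.75 and -0.43 for the spliced form. For inserts in the window in each siNT culture, siWDR82 gave -0.43 for total RNA and -0.39 for the unspliced form. Leaving out 1 culture, siWDR82 and siZC3H4 gave -0.26 to -0.02 and -0.18 to 0.05 for total RNA, -0.23 to 0.12 for the unspliced form with either siRNA, and -0.56 to -0.28 and -0.32 to -0.07 for the spliced form. The values above 0 came without siNT culture 3, as did -0.02. The cause was not tested.

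For calls of total RNA, siWDR82 (1 call) had 0 with library totals, 0 with spike-in scaling, 12 with DESeq2, 16 with the replicate block (culture) and 0 to 4 leaving out 1 culture. For siZC3H4 (1 call) these were 0, 0, 2, 1 and 0 to 5. Calls of the unspliced form (0 with either) were 1 with spike-in scaling for siWDR82, 6 and 6 with DESeq2, 3 and 1 with the block, and 0 to 7 and 0 to 6 leaving out 1 culture. Calls of the spliced form (0 with either) were 15 and 3 with DESeq2, 13 and 1 with the block, and 0 to 6 and 0 to 4 leaving out 1 culture. Calls of the ratio (0) were 22 with siWDR82, 10 with siZC3H4 and 4 between them with DESeq2, and 0 leaving out any culture. What single inserts can show is limited by a median SE of the ratio of 1.16 on the log2 scale.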
